A study of Arabidopsis thaliana with 30 samples.

Results

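The ends of long, isolated Arabidopsis genes were examined for peaks of SWI/SNF proteins and of acetylated histone H4. A window of 300 bp on each side of the annotated transcript end was taken for every nuclear protein-coding gene of at least 2000 bp. It was kept only where no protein-coding gene began within 1000 bp of that end. This left 8892 windows of 14444 ends of genes that long, among 27444 nuclear protein-coding genes in all. The rule uses the annotation alone and no measured value. The median gene was 2939.5 bp long, its median 3′ untranslated region was 262 bp, and the nearest protein-coding start lay a median 2216 bp from the end. The ends were not all alone, since 2480 lay inside another protein-coding gene and 2685 windows overlapped another kept window. In 938 genes (10.5%) the annotated mRNAs ended more than 300 bp apart.

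The data were 20 peak lists from chromatin immunoprecipitation and sequencing of whole seedlings aged 14 days, in 10 groups of 2 lists by their titles, and the 10 input samples were not used here. GFP-tagged proteins gave 6 groups. These were BRM-GFP, BRM-GFP in the brd1/2/13 background, BRD1-GFP, BRD2-GFP, BRD13-GFP and a form of BRD2 called BRD2-dBromo-GFP. The other 4 groups were H4K5ac and H4K8ac, each in WT and in brd1/2/13 plants. The sample labels do not give the genotype that carried BRM-GFP (the series design names brm-1 for BRM, brd1 for BRD1 and brd2 for BRD2), nor the promoter of any tagged protein, and the antibody fields of the acetylation samples name GFP, so groups follow the titles. Replicates carry a bio number in the titles, but nothing says that they came from separate cultures. The p-values of tests between lists thus cover only the spread among these lists, and that spread can be technical. Tests over group means rest on differences between groups and do not use the spread between lists. A whole seedling mixes many cell types, and fewer cells with a bound site cannot be told apart from less binding per cell. Lists held 6131 to 7051 peaks for BRM-GFP in brd1/2/13 and 15562 to 20742 for the other groups. Coverage of background DNA, worked out from the deposited fold and p-values, was 10 to 18.6 reads in the BRM-GFP lists, 36.4 to 37.0 in BRM-GFP in brd1/2/13 and 24.1 to 38.1 in all others. The largest q in the lists was 0.00997 for BRM-GFP in brd1/2/13 and 0.0403 to 0.0499 in the other groups, so the authors' threshold differed between the groups too.

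BRM is the ATPase of a SWI/SNF complex, a machine that moves or evicts nucleosomes. BRD1, BRD2 and BRD13 are bromodomain proteins that belong to such complexes, and a bromodomain is a fold that binds acetylated lysine. H4K5ac and H4K8ac are acetylated lysines of histone H4 that mark active chromatin and lie mainly just past the starts of transcribed genes. The end of a gene is where the nascent RNA is cleaved and polyadenylated and where the polymerase is released.

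The motif CACGTG, the G-box bound by bZIP and bHLH transcription factors, was more frequent at the ends where these proteins were found than at other ends. In 37 windows with it BRM-GFP, BRD1-GFP, BRD2-GFP and BRD13-GFP each had a summit, the position of the highest signal within a peak, in both lists. In 22 of the 37 the motif lay past the end and outside any annotated gene. The 30 bases around it are printed for the 5 of these with the highest BRM-GFP fold enrichment, to show the motif that lies beside the summit. They are on the strand of the gene, 5′ to 3′, from the RefSeq sequence of TAIR10.1, with the motif in capitals.
AT1G29630, chr1:10353963-10353992, plus strand: taaaaaggtatgCACGTGaacgctaaaaga
AGO6, chr2:13971855-13971884, minus strand: ccgcgtcaaaccCACGTGcactactagaaa
AT5G66631, chr5:26598406-26598435, plus strand: gactatgagaacCACGTGaatggcccattc
AT2G39210, chr2:16365941-16365970, minus strand: ggggacttggctCACGTGtgttggtacaac
AT2G47010, chr2:19319509-19319538, plus strand: tttgggtcctacCACGTGgcagctaaatta
AGO6 encodes an ARGONAUTE of RNA-directed DNA methylation. Its motif was 46 bp past the end and 49 bp from the summit of the second BRM-GFP list, with fold enrichments over local background of 5.72 and 5.10 in the BRM-GFP lists. In AT1G29630 the motif was 144 bp past the end and 45 bp from that summit (fold enrichments 7.18 and 6.48), and in AT5G66631 it was 118 bp past the end and 7 bp from it (4.72 and 5.62). In AT2G39210 and AT2G47010 it was 146 and 126 bp past the end and 32 and 22 bp from the summit.

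At gene ends a summit was found in a larger share of windows for 5 of the 6 tagged groups than for any acetylation group, with BRM-GFP in brd1/2/13 the exception. BRM-GFP had a summit in 5.48% and 6.53% of the 8892 windows in its lists, against 7.85% and 8.56% of all tiles of the same width laid over the nuclear genome. BRM-GFP in brd1/2/13 had one in 1.34% and 1.83%, where tiles gave 3.09% and 3.55%. For BRD1-GFP the values were 9.57% and 8.24% (tiles 9.47% and 9%). The BRD2-GFP lists gave 10.1% and 9.48% (tiles 9.27% and 9.01%), and the BRD13-GFP lists 8.38% and 8.21% (tiles 8.18% and 8.17%). These 3 BRD proteins were thus found at gene ends at about the rate of all tiles. BRD2-dBromo-GFP had the highest share, 13.0% in each list, against 9.54% and 9.4% of tiles.

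H4K5ac had a summit in 2.35% and 2.63% of the windows in WT and in 2.64% and 2.86% in brd1/2/13, against 10.1% and 10.5% of tiles in both lists of the respective group. H4K8ac had one in 1.61% and 1.77% in WT, with tiles at 9.92% and 9.99%. In brd1/2/13 the H4K8ac lists gave 1.99% and 1.86%, against 10.1% of tiles in each. Over the tile share, the end share was 0.169 to 0.263 in the 4 acetylation groups, 0.474 in BRM-GFP in brd1/2/13, 0.731 in BRM-GFP, 0.963 to 1.07 in BRD1-GFP, BRD2-GFP and BRD13-GFP and 1.37 in BRD2-dBromo-GFP. Acetylation summits were thus scarcer at gene ends than in the genome as a whole, and BRD2-dBromo-GFP summits more frequent.

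**Figure D1:**
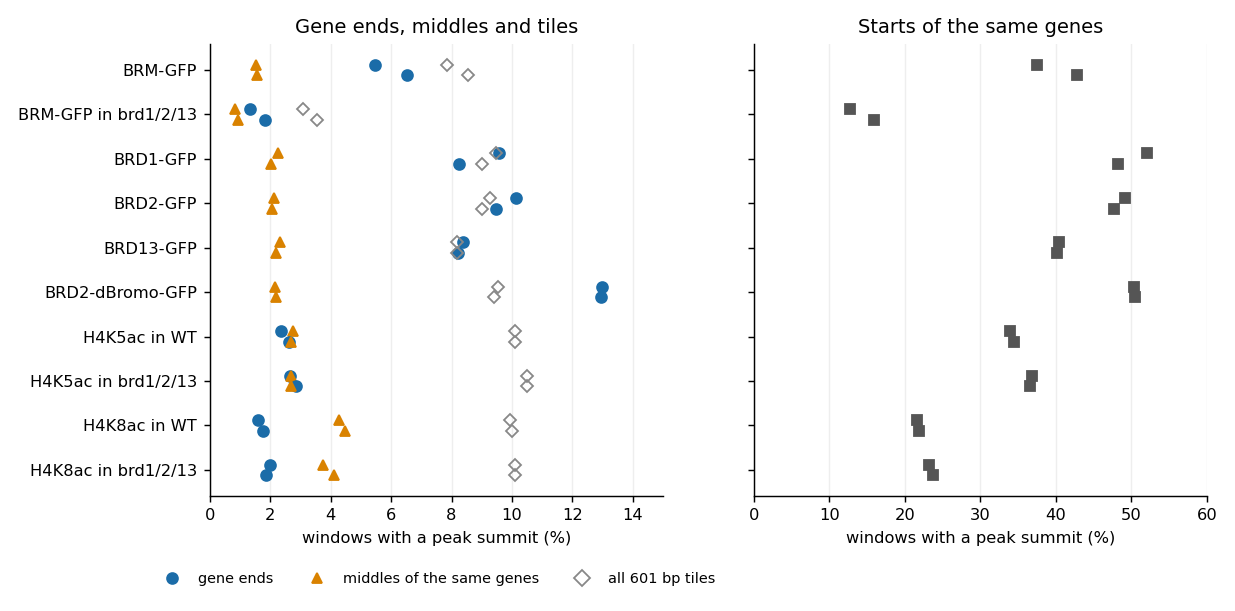
Percent of windows with a peak summit in each of the 20 lists, with 1 point per list and 10 groups on the vertical axis. Gene ends (circles), middles of the same genes (triangles) and all tiles of the genome (diamonds) are on the left, and starts of the same genes on the right, on a separate scale. BRD2-dBromo-GFP stands at 13.0% at gene ends, and the acetylation lists stay between 1.61% and 2.86% there.

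Starts of the same genes held a summit far more often. Their mean shares over the 2 lists were 40.1% for BRM-GFP, 14.3% for BRM-GFP in brd1/2/13 and 50.4% for BRD2-dBromo-GFP. BRD1-GFP, BRD2-GFP and BRD13-GFP gave 50.2%, 48.5% and 40.3%. H4K5ac and H4K8ac gave 34.2% and 21.7% in WT. All 10 groups were lower at the end than at the start, by a mean of 30.3 percentage points (SD of the differences 9.21), and an exact two-sided sign-flip permutation test over the 10 group means gave p = 0.00195, which is the smallest it can give. The Benjamini-Hochberg adjusted value over 8 tests was 0.0156. The groups share genes, and some share a genotype, so they are not independent samples of conditions.

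The middle of the same genes, which lies at least 1000 bp from their own start, gave a different picture for proteins and acetylation. The end share exceeded the middle share in 7 groups and was below it in 3, by a mean of 3.16 percentage points (SD 4.59), and the exact sign-flip test gave p = 0.0605 (adjusted 0.121). The middle share was 1.54% for BRM-GFP, 2.08% to 2.26% for the 4 BRD groups, 2.70% and 2.73% for H4K5ac and 3.93% and 4.37% for H4K8ac. End minus middle averaged 6.08 points in the 6 GFP groups, higher in all 6, and −1.22 points in the 4 acetylation groups, higher in 1. The exact permutation test of this difference gave p = 0.00952 (adjusted 0.0381), and it was added after the shares had been seen. The end share alone averaged 7.93% in the GFP groups and 2.21% in the acetylation groups (exact permutation test, p = 0.0381, adjusted 0.102). Without BRM-GFP in brd1/2/13 the last difference was 6.98 points with an adjusted p = 0.0423 by the exact permutation test.

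The summits of the tagged proteins did not spread evenly over the window. Past the end lay 59.7% to 66.5% of the GFP summits of a list and 44.8% to 54.1% of the acetylation summits. In bins of 100 bp, BRD2-dBromo-GFP reached 3.35 ± 0.0477 summits per 100 ends (SD, n = 2) between 100 and 200 bp past the end, from 0.298 ± 0.00795 between 1200 and 1100 bp before it. Within 1000 bp of the end, BRD1-GFP, BRD2-GFP and BRD13-GFP peaked in the same bin, at 2.27 ± 0.0636, 2.45 ± 0.215 and 2.19 ± 0.0398. The BRM-GFP maximum within 1000 bp was 1.48 ± 0.151 between 200 and 300 bp past the end. BRM-GFP in brd1/2/13 had no maximum in the window, and its highest bin within 1000 bp was 0.602 between 400 and 500 bp.

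Within 1000 bp of the end, acetylation had its minimum close to where the proteins had their maximum. H4K5ac in WT fell to 0.219 ± 0.00795 summits per 100 ends in the first 100 bp past the end, from 1.42 ± 0.0557 between 500 and 400 bp before it. H4K8ac in WT was at 0.157 ± 0.0318 in the first 100 bp past the end and at 1.48 ± 0.0159 between 600 and 500 bp before it. Both marks had a small maximum before the end, at 500 to 400 bp for H4K5ac and 600 to 500 bp for H4K8ac, where BRM-GFP had 0.332 ± 0.00795 and BRD13-GFP 0.281 ± 0.0318 between 600 and 500 bp. BRM-GFP in brd1/2/13 had 0.315 ± 0.0795 there and 0.152 ± 0.0398 between 400 and 300 bp before the end. Beyond 1000 bp past the end the profile is set in part by the rule, which bars protein-coding starts nearer than that.

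**Figure D2:**
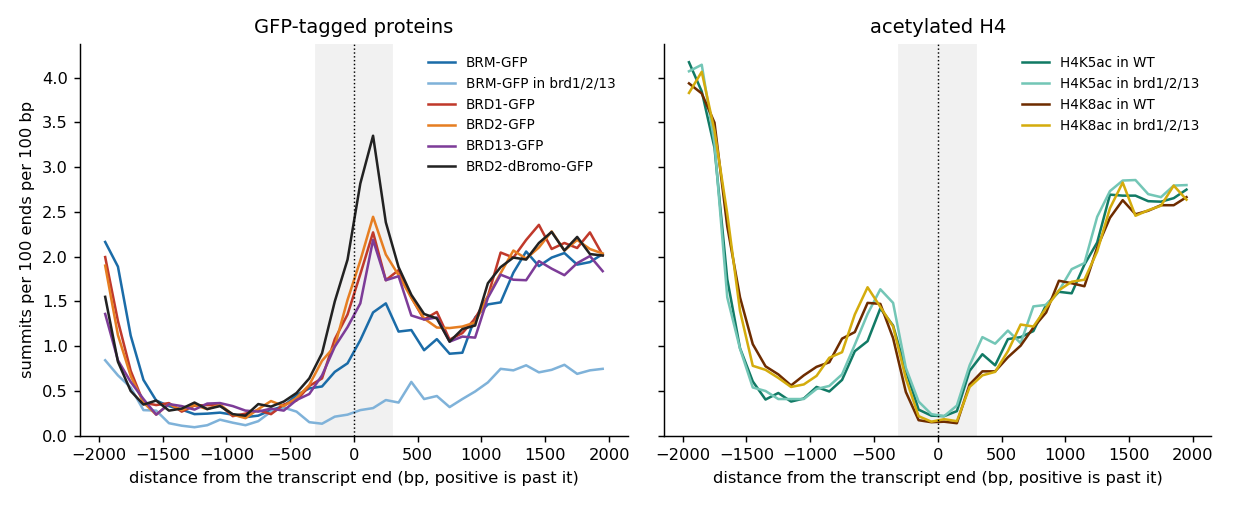
Peak summits per 100 gene ends in bins of 100 bp, mean of the 2 lists of each group, against the distance from the transcript end, with the window shaded. Within 1000 bp of the end, the GFP groups other than BRM-GFP in brd1/2/13 rise to a maximum just past it (3.35 for BRD2-dBromo-GFP). The acetylation groups fall to a minimum at the end (0.219 for H4K5ac in WT). Further out some bins are higher, as for BRM-GFP (1.89 between 1400 and 1500 bp past the end).

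Peaks at the ends were weaker and narrower than at the starts. Fold enrichment, the ratio of signal to local background that the peak caller gives at a summit, had a median of 2.80 ± 0.279 at ends and 3.38 ± 0.232 at starts for BRM-GFP (SD, n = 2 lists). The medians were 2.68 ± 0.0706 and 3.25 ± 0.00322 for BRD1-GFP and 3.21 ± 0.0141 and 3.42 ± 0.00312 for BRD13-GFP. H4K5ac in WT had 2.45 ± 0.0759 at ends and 4.85 ± 0.00993 at starts, and H4K8ac in WT had 2.1 ± 0.00667 and 3.12 ± 0.00396. The median peak with a summit at an end was 483 to 640 bp wide in the 10 groups. Few of these peaks reached a protein-coding start, a mean of 2.89% to 8.59% of them in the GFP groups and 0.225% to 0.724% in the acetylation groups. The rule itself makes this share low, since it bars protein-coding starts within 1000 bp of the end.

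Summits were next counted in windows where both lists of a group had one. BRM-GFP had 311 such windows (3.5%, tiles 5.64%), BRM-GFP in brd1/2/13 had 73 (tiles 1.99%), BRD1-GFP 577 (tiles 7.1%), BRD2-GFP 626 (tiles 6.9%), BRD13-GFP 559 (tiles 6.51%) and BRD2-dBromo-GFP 872 (9.81%, tiles 7.14%). H4K5ac had 136 in WT and 155 in brd1/2/13 (tiles 8.28% and 8.67%), and H4K8ac had 73 and 87 (tiles 7.58% and 7.64%). A summit of any list was found in 2299 windows (25.9%, tiles 29.1%), and the other 6593 had none. By gene length the BRM-GFP share was 6.12% ± 0.335 for genes of 2 to 3 kb, 5.29% ± 0.885 for those of 4 to 6 kb and 7.14% ± 1.06 for those over 6 kb, so it kept no order with length. The BRD2-dBromo-GFP share was 13.1%, 12.2% and 14.3% in the same classes. Ends inside another protein-coding gene had lower shares, 1.85% in each BRM-GFP list and 7.42% ± 0.171 for BRD2-dBromo-GFP.

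BRM and the BRD proteins shared most of the BRM-GFP ends, as they shared the BRM-GFP sites elsewhere. Of the 311 BRM-GFP windows, 228 (73.3%) had BRD1-GFP summits in both lists, 239 (76.8%) BRD2-GFP and 226 (72.7%) BRD13-GFP. The same shares were 67.5%, 66.2% and 59.7% of BRM-GFP tiles and 86.2%, 83.6% and 73.8% of the 2722 BRM-GFP starts. At the ends the shared windows were 39.5%, 38.2% and 40.4% of the windows of the respective BRD protein, and at starts 60.6%, 61.5% and 65.2%. BRM-GFP peaks of both lists overlapped 57.9%, 58.8% and 65.8% of these BRD ends, and 79.8%, 82.0% and 89.8% of the BRD starts. BRM-GFP had both summits in 0.474% of the windows with none of the 3 BRD proteins, in 12.9% with 1, in 19% with 2 and in 56.5% of the 336 windows with all 3. At starts it rose from 5.02% with none to 74.3% with all 3, and at middles from 0.219% to 48.6%, so the gradient was not particular to ends. In 38 BRM-GFP windows (12.2%) no BRD protein had summits in both lists, against 7.94% of BRM-GFP starts. Counted by peak overlap instead, BRD1-GFP, BRD2-GFP and BRD13-GFP peaks of both lists lay on 95.82%, 94.53% and 90.03% of the BRM-GFP ends. At BRM-GFP starts these overlaps were 97.21%, 94.97% and 84.86%. Ends and starts were thus closer by overlap for BRD1-GFP and BRD2-GFP, and for BRD13-GFP the ends were higher. A BRM-GFP end without BRD summits need not be one without BRD peaks. All 8 lists of the 4 proteins had a summit in 190 windows (2.14%, tiles 2.79%).

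Acetylation was found at a minority of these 190 ends, though more often than at ends in general. No peak of any acetylation list overlapped 119 of them (62.6%), and peaks of all 8 acetylation lists overlapped 22 (11.6%). Over all 8892 ends the shares were 79.4% and 3.42%. At the 1839 starts with the same 8 GFP summits they were 3.86% and 82.6%, and over all starts 21.8% and 57.6%. Conversely, all 8 acetylation lists had a summit in 34 end windows (0.382%, tiles 5.03%), of which 7 (20.6%) had no GFP peak. At starts 89 of 751 such windows (11.9%) had none, and at middles 4 of 81 (4.94%). Genes with summits of both BRM-GFP lists at their end had them at their start in 37.3% of cases, and the other genes in 30.4%. The direction was the same in the other GFP groups: BRD1-GFP had 51.5% against 43.0%, BRD2-GFP 52.1% against 40.8%, BRD13-GFP 47.6% against 33.7% and BRD2-dBromo-GFP 55.5% against 41.9%. BRM-GFP in brd1/2/13 had a start summit in 8 of 73 such genes, against 9.15% of the others. The acetylation groups had no common direction, with 25.7% against 27.0% for H4K5ac in WT and 16.4% against 14.3% for H4K8ac in WT. None of these differences was tested.

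The strongest ends with all 4 proteins belonged to genes with unlike functions. Named are the best 10 by the worst rank over the 8 lists. SKU5 (chromosome 4, 7349187 to 7353135, minus strand, TAIR10) encodes a glycoprotein of the cell surface that takes part in directional root growth. Its end window had fold enrichments of 7.81 and 8.12 in the BRM-GFP lists and 13.4 and 10.9 in the BRD1-GFP lists. The BRD2-GFP lists had 10.4 and 8.34, and BRD13-GFP had the highest values, 16.2 and 17.6. The summits lay 141 to 197 bp before the end in these lists, within the annotated 3′ untranslated region of 754 bp. In brd1/2/13 the BRM-GFP peaks had 2.5 and 3.05, and no acetylation list had a summit there or at the SKU5 start.

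AT4G36170 and AT4G36180 converge with 139 bp between their ends (17119834 and 17119973 on chromosome 4) and share the same peaks, so they are 1 site. AT4G36180 encodes a receptor-like kinase with leucine-rich repeats. The fold enrichments were 8.09 and 7.86 for BRM-GFP and 13.4 and 12.5 for BRD13-GFP. PLDP1, a phospholipase D, had 7.18 and 6.84 for BRM-GFP and 11.9 and 13.2 for BRD13-GFP. BOB1, a NudC-domain chaperone, had 8.00 and 7.55 for BRM-GFP at the end, where its start had 3.22 ± 0.0615. H4K5ac in WT was called at the BOB1 start (5.45 ± 0.167) and not at its end.

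The others were LOG8, a cytokinin-activating enzyme, FATB, the thioesterase that releases saturated fatty acids in plastids, CIPK12, a CBL-interacting kinase, AT3G13800 and AT1G19340. Their BRM-GFP folds lay between 6.18 (FATB) and 7.0 (LOG8), and BRD13-GFP folds between 9.75 (AT3G13800) and 13.6 (FATB). In all 10 windows BRD13-GFP had the highest fold of the 4 proteins in both lists. Fold depends on each list's depth and background, so this order between proteins is a description of the lists. AT3G13800, FATB, CIPK12 and AT1G19340 had no BRM-GFP summit at their start.

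**Figure D3:**
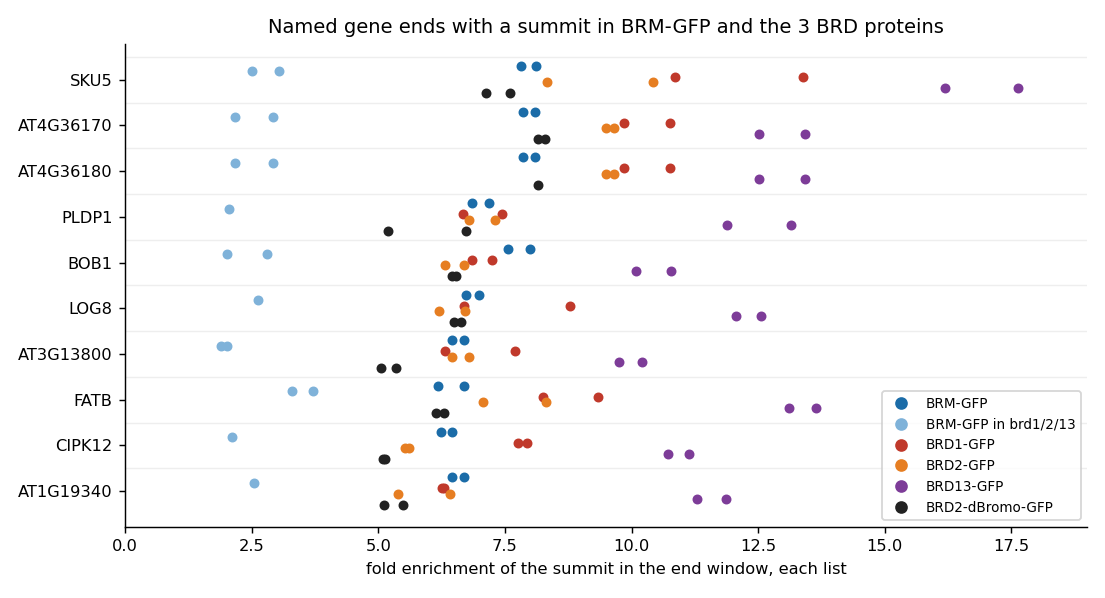
Fold enrichment of the summit in the end window, with 1 point per list, for the 10 named genes on the vertical axis and the 6 GFP groups in colours. BRD13-GFP is the highest in every row (16.2 and 17.6 at SKU5), and BRM-GFP in brd1/2/13 the lowest where it has a summit. AT4G36170 and AT4G36180 are 1 shared site.

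Ends with a summit in all 8 acetylation lists were few, 34 in number, while peaks of all 8 lists overlapped 304 ends (3.42%). The strongest of the 34 were those of CGR3, AT5G58840, EML1, BGLU41 and AT5G65240. The BGLU41 end lies inside an annotated gene of another type. CGR3, a pectin methyltransferase of the Golgi, had H4K5ac folds of 7.30 and 6.80 in WT and 7.08 and 7.12 in brd1/2/13, and H4K8ac folds of 3.84 and 4.46 in WT. No acetylation list had a summit at its start, and BRM-GFP had 1 end summit in 1 list (2.14). EML1, a protein with an EMSY N-terminal domain, had H4K5ac at both its end (6.39 ± 0.823 in WT) and its start (7.83 ± 0.674) and also BRM-GFP at its end (3.36 and 4.49). AT5G65240 had no GFP peak at its end and BRM-GFP at its start (3.70 ± 0.0992). AT4G17610 and AT4G05631 likewise had no GFP peak at the end, with H4K5ac folds in WT of 4.64 and 4.21 and of 4.25 and 4.28. The AT4G17610 end lies inside another protein-coding gene. BRD13-GFP was found without BRD1-GFP and BRD2-GFP at the ends of IQD24 (3.9 and 3.85), AT1G67750 (2.91 and 3.06) and AT3G28040 (3.16 and 2.83). Of these, the IQD24 end lies inside another protein-coding gene.

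The series compares BRM-GFP with and without BRD1, BRD2 and BRD13. At gene ends the mean share was 6.01% ± 0.748 in BRM-GFP and 1.59% ± 0.350 in brd1/2/13 (SD, n = 2 lists each), and the lists did not overlap. The ratio was 0.264 at ends, 0.357 at starts and 0.571 at middles. With 2 lists against 2 the exact permutation test cannot go below p = 0.33, which it gave, so no call can be made. The total number of peaks moves with this result. When each list was reduced to its best 6129 peaks, BRM-GFP had 1.33% and BRM-GFP in brd1/2/13 had 1.45%, so the direction turned. With peaks of q of 0.001 or less in all lists the shares were 5.65% and 1.51%. Fewer bound ends and lower signal at all sites cannot be told apart in these lists.

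Of the 311 BRM-GFP windows, 213 (68.5%, exact 95% interval 63.0% to 73.6% for counting error only) had no overlapping peak in either brd1/2/13 list, 44 had a peak in 1 list and 54 in both. The share without a peak was 56.5% of 2722 starts, 60% of 75 middles and 54.6% of tiles. The share without a peak moved with the strength of the BRM-GFP peak at both places. Below a mean fold of 3 it was 92.1% of 140 ends and 91.2% of 876 starts, from 3 to 5 it was 60.2% and 55.0%, and from 5 to 8 it was 8.11% of 37 ends and 13.1% of 496 starts. With equal numbers of peaks per list it was 28.0%, and without replicate 2 of BRM-GFP in brd1/2/13 it was 79.4%.

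**Figure D4:**
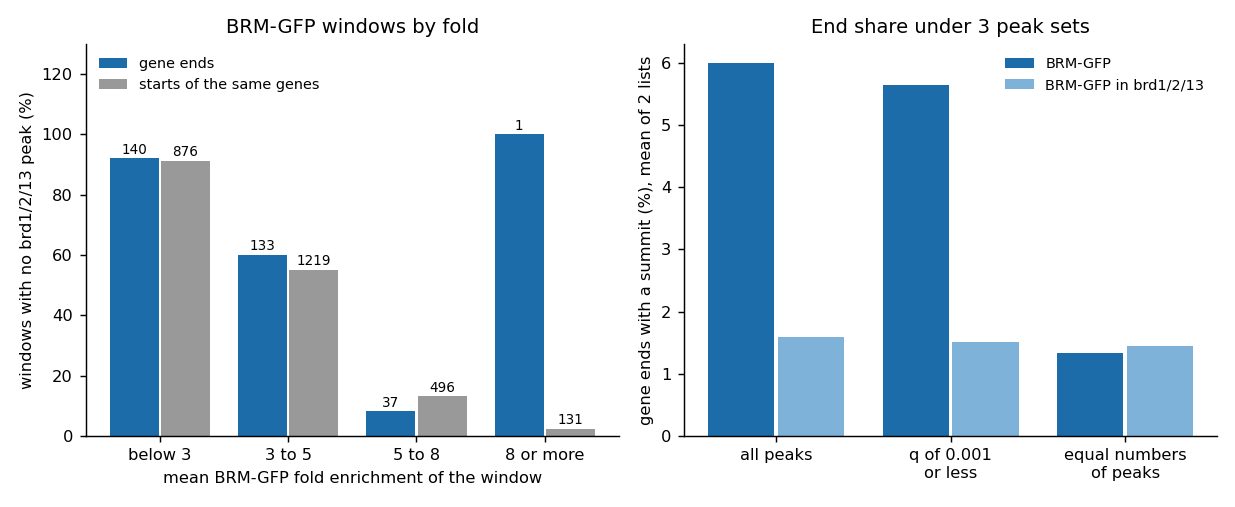
Left, percent of BRM-GFP windows without a peak in either brd1/2/13 list, by the mean BRM-GFP fold enrichment of the window, at gene ends and at starts of the same genes, with the number of windows above each bar. Right, percent of gene ends with a summit for BRM-GFP and BRM-GFP in brd1/2/13, mean of 2 lists, with all peaks, with peaks of q of 0.001 or less and with the best 6129 peaks of each list. The share without a peak falls with fold at both places up to 8, above which the ends hold 1 window (FUM1), and the 2 groups are at 1.33% and 1.45% with equal numbers of peaks.

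The ends that kept BRM-GFP with the best ranks were those of SKU5, LRB1, AT1G05700, FATB and AGK2. LRB1, a BTB protein of the light response, had BRM-GFP folds of 6.79 and 6.95 and 2.69 and 2.62 in brd1/2/13. The end of AT1G05700 had an annotated lncRNA start 266 bp away and no BRD1-GFP summit, with BRM-GFP at 6.27 and 7.71 and 3.06 and 3.81 in brd1/2/13. BRD1-GFP peaks of both lists overlapped its window, as they did all 73 windows with summits of both BRM-GFP in brd1/2/13 lists. The best ranked ends without a brd1/2/13 peak were those of FUM1, MES11, MFP2, GME and PEX5. FUM1, the mitochondrial fumarase, had the highest BRM-GFP folds of these ends, 9.54 and 9.34, and was the only 1 of the 311 at a mean fold of 8 or more. It converges with ERF71, an ethylene response factor gene, whose end is 288 bp and whose start is 1214 bp away. MFP2, a peroxisomal enzyme of fatty acid breakdown, had 5.81 and 4.90. PEX5, the import receptor of peroxisomes, had 4.72 and 4.65, with a start of another gene type 424 bp from its end. GME, an enzyme of ascorbate synthesis, had 6.36 and 4.90.

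BRD2-dBromo-GFP was compared with BRD2-GFP. Its mean share at gene ends was 13.0% ± 0.0159 against 9.81% ± 0.461 (p = 0.33 by the exact permutation test, the smallest possible), and the lists did not overlap. The ratio was 1.32 at ends, 1.04 at starts and 1.05 at middles. Of the 872 BRD2-dBromo-GFP windows, 107 (12.3%) had no BRD2-GFP peak, against 2.94% of 3841 starts and 3.22% of tiles. The reverse share was 2.88% of 626 BRD2-GFP ends, 3.38% of starts and 4.86% of tiles. The 107 ends were weak, with a median fold of 2.11 and a highest of 3.33, where the other 765 had a median of 2.78. A BRM-GFP peak overlapped 15.9% of the former and 74.4% of the latter. Over all 8892 ends the BRM-GFP lists, each taken alone, had a peak on 16.3% and 19.8%, so the 107 ends were near the general rate.

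Annotated tRNA genes stood out among these windows, which was seen after the values were known. A tRNA gene is transcribed by RNA polymerase III from a promoter inside the gene. Such a gene began in 112 of the 8892 windows (1.26%) and in 60 of the 872 BRD2-dBromo-GFP windows (6.88%). In these 112 windows BRD2-dBromo-GFP had a summit in 63.4% and 67.0%, BRD2-GFP in 35.7% and 33.0%, BRD1-GFP in 32.1% and 21.4%, BRD13-GFP in 21.4% and 20.5% and BRM-GFP in 20.5% and 18.8%. BRM-GFP in brd1/2/13 had one in 0.893% and 1.79%, and the acetylation lists in 0 to 2.68%. In the 8780 windows without a tRNA start the BRD2-dBromo-GFP mean was 12.3% and the BRD2-GFP mean 9.49%. The 107 ends without a BRD2-GFP peak held a tRNA start in 14 cases (13.1%), and the other 765 in 46 (6.01%).

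Starts of lncRNA genes lay in 247 windows (2.78%) and were more frequent among acetylated ends, with 11 of 136 H4K5ac windows in WT (8.09%) and 6 of 73 H4K8ac windows in WT (8.22%). Among BRM-GFP windows they were 8 of 311 (2.57%). In the 247 windows H4K5ac in WT had a summit in 5.67% and 6.07%. In the 7573 windows with no annotated start of any gene type within 1000 bp, its mean share was 2.08% ± 0.177 and that of BRD13-GFP 8.35% ± 0.121, and these windows held 91 of the 136 H4K5ac windows and 488 of the 559 BRD13-GFP windows.

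Acetylation shares at gene ends were slightly higher in brd1/2/13 than in WT, and no call can be made. H4K5ac had a mean share of 2.49% ± 0.199 in WT and 2.75% ± 0.151 in brd1/2/13, and H4K8ac 1.69% ± 0.111 and 1.92% ± 0.0954 (p = 0.33 for each by the exact permutation test, the smallest it can give). The difference between single lists ranged from 0.0112 to 0.506 points for H4K5ac and from 0.0900 to 0.382 points for H4K8ac. The ratio of brd1/2/13 to WT for H4K5ac was 1.10 at ends, 1.07 at starts and 0.988 at middles. For H4K8ac it was 1.14, 1.08 and 0.898. Counting any overlap of a peak with the window gave −0.169 points for H4K8ac. Of 136 H4K5ac ends in WT, 4 had no peak in brd1/2/13 (2.94%, tiles 0.871%), and of 155 in brd1/2/13, 12 had none in WT (7.74%, tiles 2.53%). For H4K8ac these counts were 6 of 73 (8.22%, tiles 1.8%) and 3 of 87 (3.45%, tiles 2.35%).

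The sequence of the windows was searched for 5 motifs on both strands. CACGTG was in 399 windows (4.49%), in 11.9% of the windows at the starts of the same genes and in 6.37% of tiles. It was in 56 of the 311 BRM-GFP windows (18.0%), in 13.8% to 14.9% of the windows of BRD1-GFP, BRD2-GFP and BRD13-GFP, and in 13.2% of the BRD2-dBromo-GFP windows. In the acetylation groups it was in 3.68% (H4K5ac in WT), 5.81% (H4K5ac in brd1/2/13), 8.22% (H4K8ac in WT) and 2.3% (H4K8ac in brd1/2/13) of the windows, on both sides of the share of all windows. Read the other way, 14.0% of the windows with CACGTG and 3.0% of those without it had summits of both BRM-GFP lists. For BRD2-dBromo-GFP these shares were 28.8% and 8.91%, for H4K5ac in WT 1.25% and 1.54%, and for H4K8ac in WT 1.5% and 0.789%, which rest on 5 and 6 windows with the motif. The motif lay a median 63.5 and 67.5 bp from the BRM-GFP summit in the 2 lists, and 29.5 and 30.5 bp from the BRD1-GFP summit.

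TGGGCC was in 8.60% of all end windows, in 18.6% of the BRM-GFP windows, in 18.1% of the BRD2-dBromo-GFP windows and in 17.6% to 21.8% of the windows of the acetylation groups, so it was more frequent in both kinds. AAACCCTA was in 4.7% of all, in 5.47% of the BRM-GFP windows and in 9.2% to 19.2% of the windows of the acetylation groups. GAGAGAGA was in 7.25% of all and 11.6% of the BRM-GFP windows, where the starts of the same genes had it in 30.7%. AATAAA, the letters of the polyadenylation signal, was in 75.5% of all windows, 80.7% of the BRM-GFP windows and 64.7% to 71.2% of those of the acetylation groups. The mean GC content was 34.1% in all windows, 33.7% in the BRM-GFP windows and 36.3% to 36.8% in those of the acetylation groups. A match to these letters is a description of the window and not a site of any factor.

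**Figure D5:**
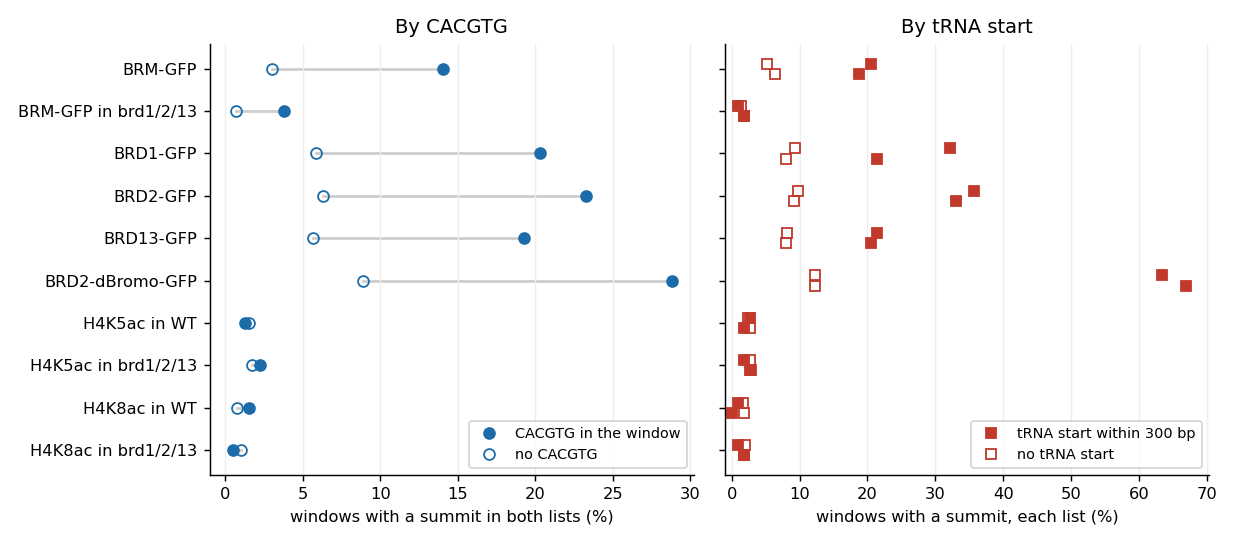
Left, percent of end windows with a summit in both lists of a group, for windows with CACGTG (filled) and without it (open). Right, percent with a summit in each list for windows with a tRNA start within 300 bp (filled) and without one (open). BRM-GFP is at 14.0% with CACGTG and 3.0% without, and BRD2-dBromo-GFP at 63.4% and 67.0% with a tRNA start.

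Ends of listed regulatory genes carried a summit in both lists of at least 1 group about as often as all ends, in 8 of 53 kept genes (15.1%, each gene counted once) against 1363 of the 8892 windows (15.3%, tiles 19.5%). The kept windows were 9 of 16 flowering time genes, 3 of 12 circadian clock genes, 11 of 13 light signalling genes, 7 of 12 gibberellin genes, 8 of 13 abscisic acid genes, 6 of 14 SWI/SNF subunit genes, 9 of 11 genes of mRNA 3′ end processing and 1 of 5 genes with a known antisense transcript. Genes not kept were too short, had a start too near or were not matched by name. Such summits were found at the ends of 3 flowering time genes, 2 gibberellin genes and 1 gene of each other list except light signalling and the clock, where 0 of 11 and 0 of 3 had them.

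GID1C, a gibberellin receptor, had all 4 proteins at its end, with folds of 4.18 and 3.57 for BRM-GFP and 5.57 and 5.36 for BRD13-GFP. At its start the mean folds were 3.77 ± 0.2 and 3.51 ± 0.423. GID1A, its paralog, had BRD13-GFP at 1.99 and 2.36, BRD2-dBromo-GFP at 1.79 and 1.76 and no BRM-GFP summit. FD, the bZIP partner of florigen, had BRD13-GFP at 4.52 and 3.77 and BRM-GFP in 1 list (2.19). It also had BRD1-GFP at 2.74 and 2.16, BRD2-GFP at 2.80 and 2.70 and BRD2-dBromo-GFP at 3.15 and 3.18. Its end is 179 bp from the convergent AT4G35905. MAF4 and MAF5 are flowering repressors related to FLC. MAF4 had BRD13-GFP at 2.06 and 2.67, BRD2-dBromo-GFP at 2.47 and 2.29 and H4K5ac in WT at 1.71 and 1.91. H4K5ac in brd1/2/13 had a summit at the MAF4 end in 1 list (1.81). MAF5 had BRD2-GFP at 2.44 and 2.06 and BRD2-dBromo-GFP at 2.43 and 2.29. ABI1, a phosphatase that restrains abscisic acid signalling, had a summit of BRD2-dBromo-GFP alone at its end (2.23 and 2.07). That end lies inside another protein-coding gene. SYD, a SWI/SNF ATPase like BRM, had BRM-GFP at its end in both lists (2.63 and 2.04) and at its start in neither. CPSF30, a polyadenylation factor, had H4K5ac in brd1/2/13 at its end (1.99 and 2.08), below that at its start (6.41 ± 0.0954). H4K5ac in WT had a summit at that end in 1 list (2.23), and so did H4K8ac in WT (1.58).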

How the data were processed

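Peak lists of 20 immunoprecipitated samples were used, with groups taken from the sample titles. Reads were mapped to TAIR10 and peaks called by the authors, and Bowtie, deepTools and MACS2 2.1.1 are listed in the submitters' processing notes. Not given in the sources used here are the Bowtie version, the read filters and how inputs entered the calling. Each deposited list holds, per peak, a score, a fold enrichment (a ratio), −log10 p and −log10 q, as the authors' caller wrote them, and peaks were called per sample. These values were used only to describe, rank and filter peaks. The score was 10 times the −log10 q, as deposited. The 9 peaks on organelle chromosomes were left out.

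Gene models came from the RefSeq annotation of TAIR10.1, which keeps the nuclear coordinates of TAIR10. The summit was the deposited peak start plus the tenth column. A window counted where at least 1 summit lay within 300 bp of the site, and an overlap of 1 bp counted where peaks are said to overlap. The genome background was 198244 tiles of the window's width. The depth of a list was known only as background coverage, and a list with low coverage misses weak peaks. Shares were compared over groups by exact permutation tests (Python 3.11.15, NumPy 2.4.6, SciPy 1.17.1) with Benjamini-Hochberg adjustment over 8 tests, of which 1 was added after the shares were seen. Figures were drawn with Matplotlib 3.10.9. The counting and the tests were checked on simulated peak lists. Alternatives were other window sizes, start distances, gene lengths and peak thresholds, single lists left out and the replicate block.

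Named windows were the best by the worst rank of the deposited score over the lists of a class. They were 10 with BRM-GFP and the 3 BRD proteins, 5 with all acetylation lists, 5 each with and without a brd1/2/13 peak, 3 with acetylation and no GFP peak, 3 with the 4 proteins and no acetylation peak (SKU5, AT4G36170 and AT4G36180), 3 with BRD13-GFP alone among the BRD proteins, and list members with a summit in both lists of a group. The members, gene lists and motifs were chosen with earlier results of these data known. Symbols shared by more than 1 gene were treated as not matched.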

Additional observations from a re-analysis of the deposited data

Results flagged for a closer look

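The end minus middle share differed between the tagged proteins and acetylation, by 7.30 percentage points (6.08 in the GFP groups and −1.22 in the acetylation groups). The exact permutation test over the group means gave p = 0.00952 and an adjusted p = 0.0381, and all 6 GFP groups were higher at the end than at the middle, against 1 of 4 acetylation groups. This test was added after the shares had been seen. The groups share genes, and some share a genotype, so they are not independent.

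Data outside the windows held 1 further signal. The lists of BRM-GFP in brd1/2/13 had 9 peaks on organelle chromosomes, and the lists of the other 9 groups had 0. No group had more than 2 lists, so single lists far from their group could not be looked for.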

How the results depend on the processing

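The lower share at ends than at starts stayed past the threshold under every alternative that gave a value. Peaks that overlap no protein-coding start gave no value for it, since start windows are defined by such starts. The end minus middle difference passed the threshold only for genes of at least 4 kb (4.05 points). The difference between GFP proteins and acetylation passed it with 150 bp on each side (3.66 points), with equal numbers of peaks per list (1.95) and without the BRM-GFP in brd1/2/13 group (6.98), the last chosen after seeing the data. The added end minus middle contrast between them was past the threshold in most settings and missed it with 500 bp on each side (8.60 points, adjusted p = 0.0833), for genes of at least 4 kb (5.29, adjusted p = 0.0762) and with peaks that overlap no protein-coding start (7.24, adjusted p = 0.0762, where 1 test fewer was available and p itself was 0.00952), all by the exact permutation test.

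The BRM-GFP difference turned to 0.118 points with equal numbers of peaks, and that of H4K8ac to −0.169 with any overlap. BRM-GFP ends without a brd1/2/13 peak were 77.8% for genes of at least 4 kb, 62.1% with any overlap, 28.0% with equal numbers of peaks and 71.7% to 79.4% with 1 list left out. The cause of these moves was not tested. With 1 list left out the differences ranged from −30.5 to −30.1 points (end minus start), 3.11 to 3.21 (end minus middle), 5.60 to 5.83 (GFP minus acetylation), 7.21 to 7.39 (the added contrast), −4.95 to −3.89 (BRM-GFP), 2.83 to 3.49 (BRD2), 0.118 to 0.399 (H4K5ac) and 0.157 to 0.315 (H4K8ac).

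The labels number the replicates but state no shared batch. With the replicate number as a block the 4 differences were −4.42, 3.16, 0.259 and 0.236 points as before, with p = 0.5 for each by an exact sign-flip permutation test, the smallest 2 pairs allow, so the block changed no call. Lists of the same number deviated with the same sign in 3 of the 4 comparisons.

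Only 2 lists per group, no read totals and peaks called at different q limits set what can be said. A window without a summit is one without a called peak at that depth, and windows that overlap or share peaks are not independent.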
